A study of Mus musculus with 2 samples.

Results

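Mature T cells were studied in single-cell transcriptomes of 2 mouse aortas. Cells that passed a filter on genes, depth and mitochondrial transcripts were chosen as members when the unique molecular identifiers (UMIs, which mark single captured transcripts) of *Cd3d*, *Cd3e*, *Cd3g* and *Trac* summed to at least 2. Members had no UMI of *Rag1* or *Dntt*, which mark immature thymocytes, and none of *Cd79a*, *Ms4a1*, *C1qa*, *Pecam1* or *Pdgfra*, which mark B cells, macrophages, endothelial cells and fibroblasts. This rule found 337 of 11442 cells, of which 220 of 6744 came from aorta 1 and 117 of 4698 from aorta 2. The share of T cells was 2.88% ± 0.546 (SD, n = 2 aortas). Both aortas came from wild-type (WT) GFPiSMC male mice on the C57BL/6J background, which carry *Myh11*-CreERT2 and the mT/mG membrane reporter. The *Myh11* promoter confines the inducible Cre to smooth muscle cells (SMCs), and the reporter changes from tdTomato to eGFP where Cre has acted. Tamoxifen at 1 mg per day for 5 days was begun at 3 weeks, and tissue was collected at 12 weeks of age. Sorting kept viable singlets of any GFP level. All samples belonged to 1 group, and the comparisons are between cell groups inside the same aortas.

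T cells recognise peptide bound to major histocompatibility molecules through an antigen receptor of paired variable chains, held at the membrane by the signaling chains CD3γ, CD3δ, CD3ε and CD3ζ. The coreceptors CD4 and CD8 divide most T cells into helper and cytotoxic lineages, and a minor lineage carries a γδ receptor. Naive T cells recirculate through lymph nodes with the help of CCR7, whereas effector and tissue-resident cells carry other chemokine receptors and may hold cytotoxic granules. In the artery wall, T cells are known mainly as residents of the adventitia, and they accumulate in vascular inflammation.

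The 3 genes for CD3γ, CD3δ and CD3ε lie close together on chromosome 9, and their transcripts chose the members. *Cd3g* and *Cd3d* are transcribed away from each other, with 854 bases between the promoter windows shown here. The 250 bases before each transcription start, from RefSeq in the build GRCm38.p6, are given because these genes define the cells, and that of *Ly6c2* because it passed the test between CD8 and CD4 T cells below. The windows are chr9:44981536-44981785 on the plus strand for *Cd3d*, chr9:44980432-44980681 on the minus strand for *Cd3g*, chr9:45009612-45009861 on the minus strand for *Cd3e* and chr15:75111972-75112221 on the minus strand for *Ly6c2*. The last 16 bases of the *Cd3e* window lie inside that gene's GENCODE model. Capitals mark letters that match TGTGGT (the core bound by RUNX factors), AGGAAG (a core bound by ETS factors) or CTTTGA (a core bound by TCF and LEF factors), each on either strand:
Cd3d: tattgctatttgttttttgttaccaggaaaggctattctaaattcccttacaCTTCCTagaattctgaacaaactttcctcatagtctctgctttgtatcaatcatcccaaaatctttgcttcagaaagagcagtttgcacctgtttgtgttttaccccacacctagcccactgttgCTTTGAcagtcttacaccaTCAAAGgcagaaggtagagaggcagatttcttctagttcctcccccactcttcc
Cd3g: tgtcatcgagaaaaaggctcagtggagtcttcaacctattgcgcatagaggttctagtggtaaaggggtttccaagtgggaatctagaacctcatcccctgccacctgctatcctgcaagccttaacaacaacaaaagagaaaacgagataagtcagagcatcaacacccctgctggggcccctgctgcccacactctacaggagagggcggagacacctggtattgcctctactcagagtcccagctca
Cd3e: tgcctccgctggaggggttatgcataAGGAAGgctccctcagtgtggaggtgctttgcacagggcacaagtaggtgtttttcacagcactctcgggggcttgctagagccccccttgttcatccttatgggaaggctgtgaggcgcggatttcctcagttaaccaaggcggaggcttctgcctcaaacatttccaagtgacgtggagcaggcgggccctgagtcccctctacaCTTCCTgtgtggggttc
Ly6c2: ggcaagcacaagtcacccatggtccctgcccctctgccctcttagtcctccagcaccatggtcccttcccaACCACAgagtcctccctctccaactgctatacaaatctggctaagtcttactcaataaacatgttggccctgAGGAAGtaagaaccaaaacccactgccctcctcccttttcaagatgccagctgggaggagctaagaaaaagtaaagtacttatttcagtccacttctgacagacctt

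The *Cd3d* window held 2 TCF and LEF cores, 73 and 54 bases before the start, and 1 ETS core. The *Cd3e* window held 2 ETS cores, and the *Cd3g* window held none of these letters. Matches of different cores could overlap, and none did in the windows shown. Among all 32851 promoters of 27025 genes, the ETS core was found in 29.5%, the RUNX core in 14.0% and the TCF and LEF core in 13.8%. Among the promoters of the genes that could be tested between T and B cells the shares were 28.8%, 10.9% and 10.8%. Among the promoters of genes that passed the test below as higher in T cells than in B cells, they were 35.0%, 13.9% and 11.9%, and among those lower they were 31.0%, 13.0% and 12.1%. These shares are a description and were not tested.

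The receptor transcripts stood far from the limit that chose the cells. The UMIs of the 4 genes of the rule had a median of 15 per T cell in both aortas, with a maximum of 66 in aorta 1 and 37 in aorta 2. Just inside the limit, 6 and 4 cells held exactly 2 such UMIs, and just outside it 18 and 13 cells held exactly 1. Before the exclusions 489 and 261 cells met the limit, of which 156 and 99 were dropped for *Rag1* or *Dntt* and another 113 and 45 for markers of other lineages. *Cd3g* was found in 96.8% and 98.3% of T cells, *Cd3d* in 96.4% and 95.7%, *Cd3e* in 84.5% and 87.2%, and *Trac*, the constant region of the α chain, in 87.3% and 79.5%. *Ms4a4b*, a membrane protein of T cells that the rule did not use, was found in 85.0% and 82.9% of them. With every cell thinned to 1000 UMIs, *Ms4a4b* remained in 62.7% of T cells in aorta 1 (exact 95% binomial interval 56.0 to 69.1) and 57.3% in aorta 2 (47.8 to 66.4), against 4.11% and 0% of B cells and 0% of SMCs in both aortas. The other 4 markers of the label are the genes of the rule, so *Ms4a4b* was the one marker whose level the choice of cells did not fix.

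T cells held a median of 4702.5 UMIs and 1590.5 genes in aorta 1 and 4296 UMIs and 1546 genes in aorta 2, with mitochondrial shares of 3.11% and 3.09%. B cells, chosen by at least 2 UMIs of *Cd79a* and *Ms4a1* and no *Cd3e*, numbered 146 and 107 with medians of 3442 and 3488 UMIs. SMCs, with medians of 8026 and 7811 UMIs, served as the background of free RNA. The libraries shared 18 of their deposited barcodes, none of them in a T cell. Scrublet called 2 T cells in each aorta and 12 and 6 B cells as doublets, and these cells were kept. At least 5 UMIs of 6 SMC and fibroblast genes (*Myh11*, *Acta2*, *Tagln*, *Dcn*, *Col1a2*, *Col3a1*) were present in 24 and 11 T cells and in 26 and 13 B cells.

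**Figure D1:**
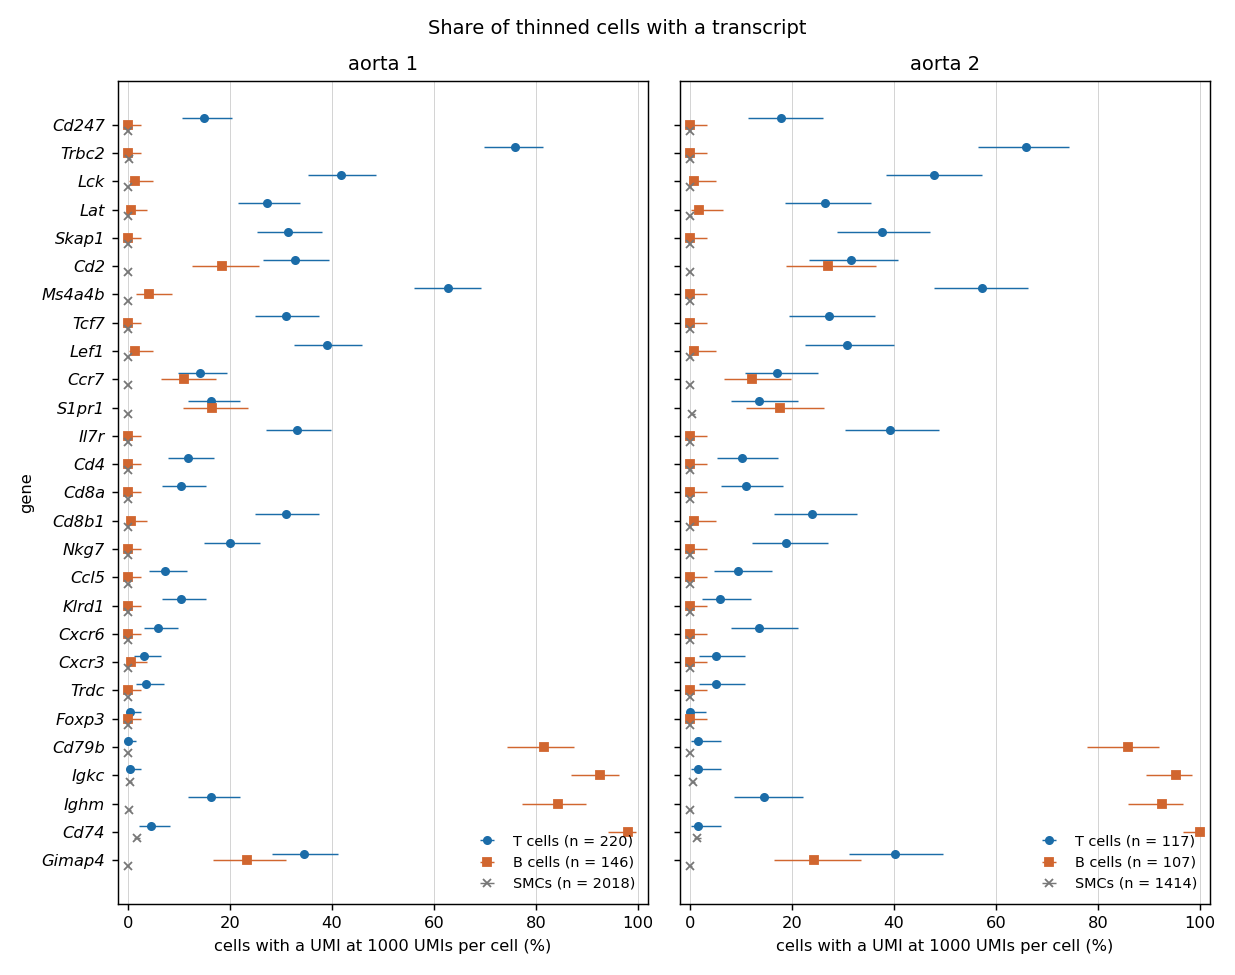
Share of cells with at least 1 UMI of each gene (x axis, %) after every cell was thinned to 1000 UMIs, for T cells (circles), B cells (squares) and SMCs (crosses), one panel per aorta. Bars are exact 95% binomial intervals and cover counting error only. *Ms4a4b* reached 62.7% and 57.3% of T cells, while *Cd79b* reached 81.5% and 86.0% of B cells.

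More T cells held a captured CD8 transcript than a captured CD4 transcript in both aortas. Cells with a UMI of *Cd8a* or *Cd8b1*, the chains of CD8, and none of *Cd4* numbered 82 of 220 in aorta 1 and 37 of 117 in aorta 2, or 34.4% ± 3.99 (SD, n = 2). Cells with *Cd4* alone numbered 52 and 26, or 22.9% ± 1.00. Both coreceptors were found in 10 and 5 cells, and neither in 76 and 49 cells, or 38.2% ± 5.19. The exact 95% interval of the CD8 share lay above that of the CD4 share in aorta 1 (30.9 to 44.0% against 18.2 to 29.8%) and overlapped it in aorta 2 (23.3 to 40.9% against 15.1 to 30.8%). Both shares come from the same cells, so these intervals are no test between them. Thinning to 1000 UMIs changed the mean share of CD4 cells to 10.4%, of CD8 cells to 29.2% and of cells with neither to 59.8%, so these shares depended on depth. *Cd4* was captured more thinly than *Cd8b1*, with 92 and 40 UMIs in CD4 cells against 554 and 273 *Cd8b1* UMIs in CD8 cells, and the cells with neither outnumbered the gap between the classes. In SMCs *Cd4* was found in 0 and 1 cells and *Cd8b1* in 4 and 2 cells.

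**Figure D2:**
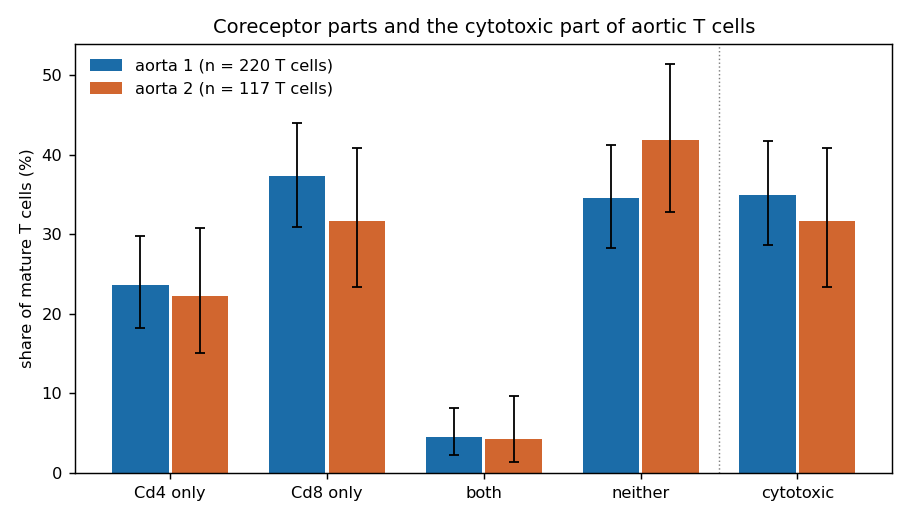
Share of mature T cells (y axis, %) with *Cd4* only, *Cd8a* or *Cd8b1* only, both or neither, and of cytotoxic T cells, which cut across these 4 classes, in each aorta. Bars start at 0 and error bars are exact 95% binomial intervals. CD8 cells made up 37.3% and 31.6% of T cells, and cytotoxic cells 35.0% and 31.6%.

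Most T cells carried transcripts of a constant region of the receptor β chain. *Trbc2*, one of these regions, was found in 95.9% and 97.4% of T cells. Cells with *Trbc2* and no *Trbc1* numbered 85 and 50, those with both 126 and 64, and those with *Trbc1* alone 5 and 2. These constant regions are near-identical copies, so that reads may be divided between them by the counting. Variable segments were seen in few cells. Of 128 *Trav* segments 27 and 17 were detected, in 46 and 18 T cells, and of 35 *Trbv* segments 14 and 11, in 33 and 17 T cells. Every T cell with a *Trbv* segment held only 1 of them. The segment with most UMIs was *Trbv2* in aorta 1, with 18, and *Trbv13-2* in aorta 2, with 4, so the leading segment was not shared.

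A γδ receptor transcript was found in a small share of T cells. *Trdc*, the constant region of the δ chain, was found in 15 of 220 cells (6.82%, exact 95% interval 3.87 to 10.996) in aorta 1 and 8 of 117 (6.84%, 3.00 to 13.0) in aorta 2, against 0 B cells and 0 and 1 SMCs. At least 2 *Trdc* UMIs were held by 9 and 6 cells. Of these, 6 of 9 and 6 of 6 had neither *Cd4* nor *Cd8*, and *Trac* was present in 4 of 9 and 1 of 6, compared with 183 of 205 and 91 of 109 T cells without *Trdc*. *Trdv4*, a δ variable segment, led in both aortas with 4 and 6 UMIs. The rule that chose the members counted *Trac* and not *Trdc*.

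Against B cells, the other lymphocyte of the wall, T cells were higher in receptor chains, receptor signaling and cytotoxic genes and lower in B cell genes. UMIs were summed per aorta and cell group, and edgeR's quasi-likelihood test was fitted to 6 cell groups of both aortas, leaving out the genes that chose the cells. A gene passed at a Benjamini-Hochberg adjusted p under 0.05 and a log2 fold change beyond 1 in either direction. Of 13552 genes tested, 1561 (11.5%) passed, 572 (4.22%) of them higher and 989 (7.3%) lower in T cells. Of the 24 genes listed for T cell receptor signaling 20 were higher and 0 lower, with a median log2 fold change of 5.09 against -0.04 over all genes tested, and of 21 cytotoxic genes 14 were higher and 0 lower. The T cell rule removed cells with *C1qa*, *Pecam1* or *Pdgfra* and the B cell rule did not. With B cells held to the same exclusions, which left 88 and 63 of them, 558 genes were higher and 508 lower, 400 and 485 of which had passed before, and receptor signaling again had 20 of 24 higher. Both groups were chosen by transcripts of the same cells, and genes at or near 0 in one group passed the filter on low counts only through others, so these counts describe how the groups differ and are no independent check of their names.

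*Lck*, the kinase that phosphorylates the receptor chains, stood at 562 and 494 normalised counts (CPM, UMIs per 1000000 UMIs of the cell group) in T cells of aortas 1 and 2 and at 12.1 and 10.7 CPM in B cells. Its groups did not overlap, and its log2 fold change was 5.51 (SE 0.259, edgeR adjusted p = 8.35e-10). *Lat*, the adaptor on which the signaling complex assembles, was at 329 and 348 CPM against 1.21 and 7.14 (log2 fold change 6.52, SE 0.295, adjusted p = 5.84e-10). *Cd28*, the costimulatory receptor, was at 246 and 219 CPM against 7.26 and 28.6. *Cd2*, an adhesion receptor, did not pass, with 350 and 339 CPM against 243 and 346. The receptor chains *Cd247*, *Trbc1*, *Trbc2*, *Trdc*, *Tcrg-C1*, *Tcrg-C2* and *Tcrg-C4*, the members of their list that could be tested, were all higher.

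Transcription factors of the T lineage were higher in part. Of 15 genes tested, 9 were higher and 2 lower, with a median log2 fold change of 2.29. *Tcf7*, the factor TCF-1 of early and naive T cells, was at 425 and 351 CPM against 0 and 1.79 in B cells, a ratio of 554 (counting interval 99.2 to 21932). *Bcl11b*, which commits progenitors to the T lineage, was at 312 and 296 CPM against 2.42 and 0, a ratio of 213 (counting interval 58.6 to 1761). *Lef1*, a partner of TCF-1, was at 479 and 435 CPM against 9.68 and 3.57. *Gata3*, *Tox*, *Runx3*, *Satb1*, *Id2* and *Zbtb7b* were also higher. *Bach2*, a repressor used by both lymphocyte lineages, was lower in T cells, at 47.5 and 39.3 CPM against 100.4 and 94.6 (log2 fold change -1.16, SE 0.234, adjusted p = 0.00303), as was *Ikzf3* (log2 fold change -1.29, SE 0.24, adjusted p = 0.00189).

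Of the naive T cell genes, the interleukin 7 receptor was found in T cells and not in B cells. Of the genes of recirculation, *Ccr7* was higher by less than the limit on fold change, and *S1pr1* did not pass. Of 10 genes listed for naive and circulating T cells, 6 were higher and 0 lower, with a median log2 fold change of 1.80. By the adjusted p alone, without the limit on fold change, 7 were higher and 0 lower. *Il7r*, the receptor for the survival cytokine interleukin 7, was at 529 and 721 CPM and at 0 in B cells, at least 274-fold higher when the group at 0 is set at 3 UMIs over the group, as in the bounds that follow. *Dapl1* was at 263 and 182 CPM and at 0 in B cells. By contrast *Ccr7*, which guides cells into lymph nodes, was at 179 and 209 CPM against 110.1 and 105 (log2 fold change 0.81, SE 0.202). *Ccr7* was thus higher in T cells of both aortas, but with a log2 fold change under 1 it could not pass at any p. *S1pr1*, the receptor for lymph node exit, was at 169 and 157 CPM against 155 and 139 and did not pass.

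Receptors for chemokines and cytokines showed differences in both directions. Of 13 chemokine receptors tested, 4 were higher (*Cxcr6*, *Cxcr3*, *Ccr2*, *Ccr9*) and 4 lower (*Cxcr5*, *Ccr6*, *Ccr1*, *Ackr3*) in T cells, of which *Ackr3* no longer passed with B cells held to the same exclusions. *Cxcr6*, a receptor of tissue T cells, was at 117 and 202 CPM and at 0 in B cells, at least 67.3-fold higher. It was found in 40 and 29 T cells, that is 18.2% (exact 95% interval 13.3 to 23.9) and 24.8% (17.3 to 33.6). *Itgae*, the CD103 integrin chain of tissue-resident cells, was at 20.99 and 28.5 CPM and at 0 in B cells, at least 10.9-fold higher. Of 16 interleukin and interferon receptors tested, 7 were higher and 1 lower. *Il2rb* was at 78.5 and 76.7 CPM against 1.21 and 0, and *Il18r1* at 66.6 and 99.9 CPM against 0 in both B cell samples.

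Families with members on several leukocytes were divided. *Ms4a4b* (1244 and 1274 CPM in T cells, 20.6 and 8.93 in B cells, log2 fold change 6.30, SE 0.321, adjusted p = 2.11e-09) and *Ms4a6b* (583 and 571 CPM against 18.1 and 23.2) were higher in T cells, whereas *Ms4a4c* was lower (44.7 and 49.95 CPM against 136 and 127, log2 fold change -1.51). Of 8 *Gimap* genes, small GTPases of lymphocyte survival, 2 were higher and 0 lower, and *Gimap6* was at 320 and 335 CPM against 295 and 330. TGF-β signaling, the pathway the study concerns, was tested over 14 genes, of which 2 were higher and 0 lower, where 11.5% of all genes passed in either direction. With B cells held to the same exclusions 4 of the 14 were higher. *Tgfbr2*, the type II receptor, did not pass, with 93.1 and 96.3 CPM in T cells and 96.8 and 57.1 in B cells. *Smad7*, the inhibitory Smad, was higher, with 147 and 157 CPM against 39.9 and 49.98 (log2 fold change 1.76, SE 0.245, adjusted p = 0.000129).

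**Figure D3:**
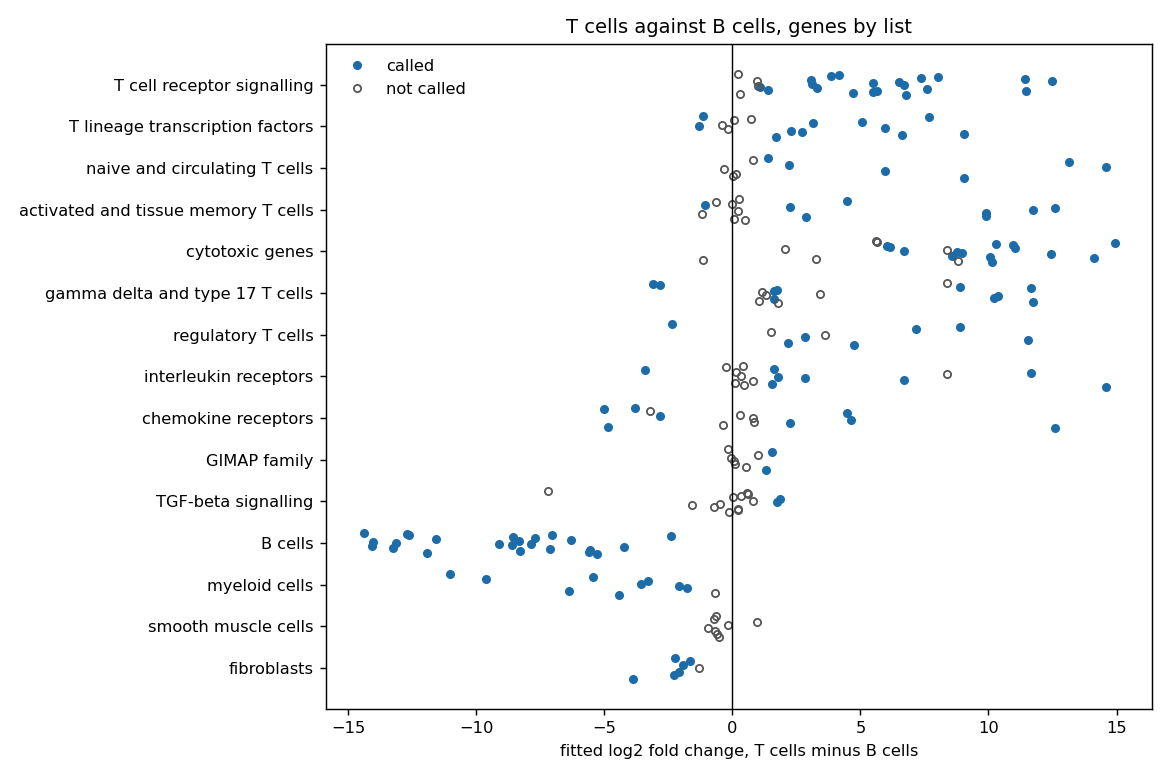
Fitted log2 fold change of T cells minus B cells (x axis) for the genes of 15 lists (y axis), one point per gene. Filled points passed the test and open points did not, and fold changes beyond about 8 mostly belong to genes at or near 0 in one group. Receptor signaling genes lay to the right, with 20 of 24 higher, and the B cell list lay to the left, with 24 of 24 lower.

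Markers of other cells were not absent from T cells, and those of immature thymocytes and SMCs were not lower than in B cells throughout. The B cell list was lower in T cells in 24 of 24 genes, and *Igkc*, *Cd79b*, *Jchain* and *Bank1* were at 2.74 and 8.92, 8.22 and 8.92, 0 and 0, and 0 and 0 CPM. The myeloid list was lower in 9 of 10 genes, with summed levels of 202 and 214 CPM in T cells and 3726 and 3717 CPM in B cells, but with B cells held to the same exclusions it was lower in 4 of 10 (*Ctss*, *Tyrobp*, *Lyz2*, *Adgre1*), and *C1qc* and *Csf1r* turned direction without passing (log2 fold changes 0.71 and 0.30). The 9 SMC genes summed to 1572 and 2787 CPM in T cells and to 4276 and 2085 CPM in B cells, with 0 of 8 tested genes passing. The 8 fibroblast genes summed to 388 and 1067 CPM in T cells and to 3899 and 1093 CPM in B cells, and 6 of 7 were lower in T cells. This direction turned for *Col1a1*, *Col1a2*, *Col3a1*, *Dpt* and *Gsn* with B cells held to the same exclusions, with log2 fold changes of 0.34 to 1.12, and for *Lum*, *Col1a1*, *Dpt* and *Gsn* without the cells that held SMC or fibroblast UMIs, with 0.16 to 0.50. The fibroblast sums differed in aorta 1 and not in aorta 2, without the T and B cells that held SMC or fibroblast UMIs, or with B cells held to the same exclusions, none of these 6 passed, and the part of these transcripts in other results was not tested. Of the 16 genes listed for immature thymocytes, *Rag1* and *Dntt* were at 0 by the rule and *Ptcra* was at 0 in both aortas. Of 11 tested, 4 were higher than in B cells (*Mns1*, *Ccr9*, *Myb*, *Sox4*) and 1 was lower. With B cells held to the same exclusions these numbers were 2 and 1 of 10. The list summed to 475 and 318 CPM in T cells and to 360 and 295 CPM in B cells. Of 16 cell cycle genes 2 were higher, *Stmn1* at 232 and 67.8 CPM against 18.1 and 80.3, and *Hmgb2* at 563 and 232 CPM against 105 and 239. Both were higher than in B cells in aorta 1 and lower in aorta 2, and without aorta 1 the log2 fold changes were -0.24 and -0.04. *Mki67*, a marker of cycling cells, was found in 5 of 220 and 0 of 117 T cells, the latter allowing a share of up to 2.56% of cells with a UMI, which is no limit on cycling cells.

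The reporter set T cells apart from the SMC lineage. *eGFP* was found in 19.1% and 15.4% of T cells and in 98.0% and 97.2% of SMCs. *tdTomato* was found in 61.4% and 56.4% of T cells and in 8.87% and 8.91% of SMCs. After thinning to 1000 UMIs *eGFP* remained in 5.91% and 3.42% of T cells and in 10.3% of B cells in both aortas, and the part of free RNA in these shares was not tested. Neither reporter passed between T and B cells.

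Between CD8 and CD4 T cells 1 transcript passed, and the number depended on the fit. The coreceptors chose these cells and were not tested. Of 3564 genes tested, 1 gene (0.0281%) passed, 1 (0.0281%) higher and 0 (0%) lower in CD8 T cells. The gene was *Ly6c2*, a surface antigen of the LY6 family on chromosome 15. It stood at 509 and 489 CPM in CD8 T cells of aortas 1 and 2 and at 48.2 and 87.2 CPM in CD4 T cells, a log2 fold change of 3.13 (SE 0.279, edgeR adjusted p = 0.0014). Its neighbour *Ly6c1*, a near-identical copy, ran the other way, at 2.20 and 0 CPM against 60.3 and 19.4, and did not pass (adjusted p = 0.415). The division of reads between these copies is uncertain. At an unadjusted p under 0.05, 142 genes were higher and 117 lower, and DESeq2 called 2 and 1 genes. With the aorta as a block, which pairs cell groups of the same animal, edgeR called 10 and 2, and *Ly6c2* was among them. Without a gene filter 49 and 27 genes passed, and without T cells that held SMC or fibroblast UMIs 15 and 9. Without cytotoxic cells, which left 12 CD8 T cells in aorta 2, 0 genes passed and *Ly6c2* could not be tested.

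Genes of recirculation, like almost all genes, did not pass between the lineages. *Ccr7* was at 198 and 226 CPM in CD8 T cells and at 205 and 271 CPM in CD4 T cells, and *Il7r* at 441 and 498 CPM against 490.1 and 562. *Lef1* was at 465 and 376 CPM against 639 and 562. None of the 10 listed genes passed, where 0.0281% of all genes tested did, so this count says nothing of the list. At least 1 UMI of *Ccr7* or *Lef1* was present in 71 of 82 and 33 of 37 CD8 T cells and in 48 of 52 and 22 of 26 CD4 T cells. The granule gene *Nkg7* was at 820 and 663 CPM in CD8 and at 24.1 and 223 CPM in CD4 T cells, and *Ccl5*, a chemokine of effector cells, at 1268 and 1472 CPM against 4.02 and 300.3. Neither passed (adjusted p = 0.127 and 0.181), and in both genes CD4 T cells of aorta 2 were higher than those of aorta 1. *Klrd1*, the CD94 receptor, was at 287 and 193 CPM against 20.1 and 0 (adjusted p = 0.088). *Runx3*, a factor of the CD8 lineage, was at 218 and 221 CPM against 40.2 and 87.2 (adjusted p = 0.11).

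T cells with neither coreceptor captured stood above both lineages in γδ and type 17 T cell genes. Of the 20 genes of that list, 18 were detected in these 3 classes, and all 18 were higher in CPM in these cells than in CD8 and in CD4 T cells of both aortas, as were 11.8% of the 13903 genes with a UMI in these classes, while 5.7% were lower than in both. The list summed to 1405 and 2118 CPM in them, against 99.2 and 212 CPM in CD8 and 121 and 184 CPM in CD4 T cells. Of 16 genes of activated and tissue memory T cells 6 stood above both lineages in both aortas and 0 below, and of 10 naive T cell genes 1 stood above and 3 below. These cells held 69 of 88 and 51 of 51 *Trdc* UMIs and 103 of 128 and 93 of 113 *Cxcr6* UMIs. Values of these cells are given without a test, since none was planned, and the lists share genes. *Trdc* was at 193 and 232 CPM in them, against 28.7 and 0 in CD8 and 12.1 and 0 in CD4 T cells. *Cxcr6* was at 288 and 423 CPM against 50.7 and 56.4 in CD8 and 8.03 and 58.1 in CD4 T cells. *Il7r* was at 697 and 1004 CPM, above CD8 and CD4 T cells of both aortas. *S100a4*, a calcium-binding protein of motile and memory cells, was at 515 and 1077 CPM against 83.8 and 14.1 in CD8 and 60.3 and 203 in CD4 T cells. *Ccr2*, *Maf*, *Rora* and *Zbtb16*, transcripts known from memory and innate-like T cells, also stood above both lineages in both aortas. SMC transcripts moved with this class in aorta 2, where the 9 SMC genes summed to 5992 CPM in it, 936 in CD8 and 368 in CD4 T cells, and not in aorta 1, where they summed to 1581, 531 and 3640 CPM. Of the T cells with SMC or fibroblast UMIs 13 of 24 and 7 of 11 were in this class. Without such cells *S100a4* was at 461 and 921 CPM against 31.7 and 11.6 in CD8 and 61.2 and 203 in CD4 T cells, *Cxcr6* at 239 and 384 CPM against 48.8 and 57.8 and 9.41 and 58.1, and *Trdc* at 204 and 129.98 CPM against 31.7 and 0 and 9.41 and 0. A UMI of *Ccr7* or *Lef1* was present in 47 of 76 and 30 of 49 of these cells (61.8% and 61.2%).

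Cytotoxic T cells, chosen by at least 2 UMIs of *Nkg7*, *Ccl5* and the pore-forming *Prf1*, cut across the coreceptor classes. They numbered 77 of 220 and 37 of 117 T cells, or 33.3% ± 2.39 (SD, n = 2). Of CD8 T cells 73.2% and 67.6% were cytotoxic, compared with 3.85% and 7.69% of CD4 T cells and 19.7% and 18.4% of cells with neither. Cytotoxic cells were deeper than T cells as a whole, with medians of 5371 and 5739 UMIs. After thinning to 1000 UMIs the mean share was 13.0%. *Nkg7* was found in 0 B cells and in 1 and 2 SMCs, compared with 35.9% and 40.2% of T cells.

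Against the other T cells, 40 of 4745 genes (0.843%) passed, 28 (0.59%) higher and 12 (0.253%) lower in cytotoxic cells. Without Scrublet doublets the numbers higher and lower were 50 and 88, and without a gene filter 74 and 138. Of 24 cytotoxic genes listed, 3 chose the cells and 10 passed the filter on low counts, of which 7 were higher and 0 lower. Some of these passed the filter through the cytotoxic group alone, so this count is a description. *Ly6c2* was at 627 and 625 CPM against 26.5 and 29.3 (log2 fold change 4.599, SE 0.207, adjusted p = 2.92e-05). The division of reads between it and its near-identical copy *Ly6c1* is uncertain here too. *Cd8b1* was at 1005 and 986 CPM against 188 and 185 (log2 fold change 2.52, SE 0.15, adjusted p = 0.000153). *Klrd1* was at 382 and 192 CPM against 23.3 and 26.4, *Il2rb*, which forms the interleukin 15 receptor, at 148 and 151 CPM against 29.6 and 29.3, and *Ctsw*, a granule protease, at 199 and 338 CPM against 65.3 and 73.2. *Xcl1*, a chemokine that draws dendritic cells, was at 57.4 and 86.7 CPM and at 0 in the others, at least 21.97-fold higher. *Gzma*, a granzyme, was at 1109 and 292 CPM against 7.78 and 0, but its 507 UMIs in T cells of aorta 1 came from 10 cells and its 64 UMIs in aorta 2 from 1 cell. *Gzmb* was at 150.2 and 59.3 CPM against 0 and 23.4 and did not pass (adjusted p = 0.0764). Of 11 natural killer (NK) cell genes listed, 3 passed the filter on low counts and were higher, *Gzma*, *Klre1* (39.8 and 45.6 CPM and at 0 in the others) and *Fcer1g* (50.8 and 95.8 CPM against 1.56 and 5.86). Genes this low in the other T cells passed the filter through the cytotoxic group alone, so their count says nothing of the list. The NK list summed to 1323 and 534 CPM against 15.6 and 5.86 CPM, most of it *Gzma*. Few cells carried these levels, with *Gzma* in 5 and 1, *Fcer1g* in 3 and 2 and *Klre1* in 8 and 4 of the 77 and 37 cytotoxic cells. The NK receptors *Ncr1* and *Klrb1c* were found in 2 and 0 and in 5 and 7 T cells, and the part of NK cells in these differences was not tested.

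Among the genes lower in cytotoxic cells, *Itm2a* was at 24.3 and 41.1 CPM against 249 and 199 (log2 fold change -2.78, SE 0.301, adjusted p = 0.00474), *Sox4*, from the thymocyte list, at 13.2 and 13.7 CPM against 106 and 61.5, and *Satb1*, a chromatin organiser of developing T cells, at 239 and 278 CPM against 749.9 and 557 (log2 fold change -1.25, SE 0.199, adjusted p = 0.0294). *Cd4* was at 11.04 and 36.5 CPM against 162 and 117. *Postn*, *Gsn* and *Apoe*, which are known from SMCs, fibroblasts and macrophages, were lower too. The lists of these cells did not move together. The 8 fibroblast genes summed to 175 and 251 CPM in cytotoxic cells against 538 and 1591 CPM, with 1 of 5 tested lower, the 9 SMC genes to 316 and 3472 CPM against 2456 and 2346 CPM, with 0 of 7 passing, and the 12 myeloid genes to 247 and 269 CPM against 169.6 and 179 CPM, with 1 of 2 higher (*Fcer1g*). SMC sums were thus lower in cytotoxic cells in aorta 1 and higher in aorta 2, and the part of these transcripts in the other differences was not tested. Few cytotoxic cells carried part of the sum in aorta 2, with 153 *eGFP* UMIs in 5 cells and 80 *Myl9* UMIs in 4, while 280 *Acta2* UMIs were spread over 21. Without the cells that held SMC or fibroblast UMIs 37 genes were higher and 20 lower, of which 27 and 7 had passed before, while *Gsn*, *Apoe*, *Aplp2* and *Igfbp4* no longer did and *Postn* failed the filter on low counts. With the aorta as a block 42 were higher and 54 lower, including all 28 and 12 of the fit without it. Within CD8 T cells alone 11 genes were higher and 31 lower, of which 7 and 2 had passed over all T cells, and *Ly6c2* remained higher (log2 fold change 2.97, adjusted p = 0.0179).

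**Figure D4:**
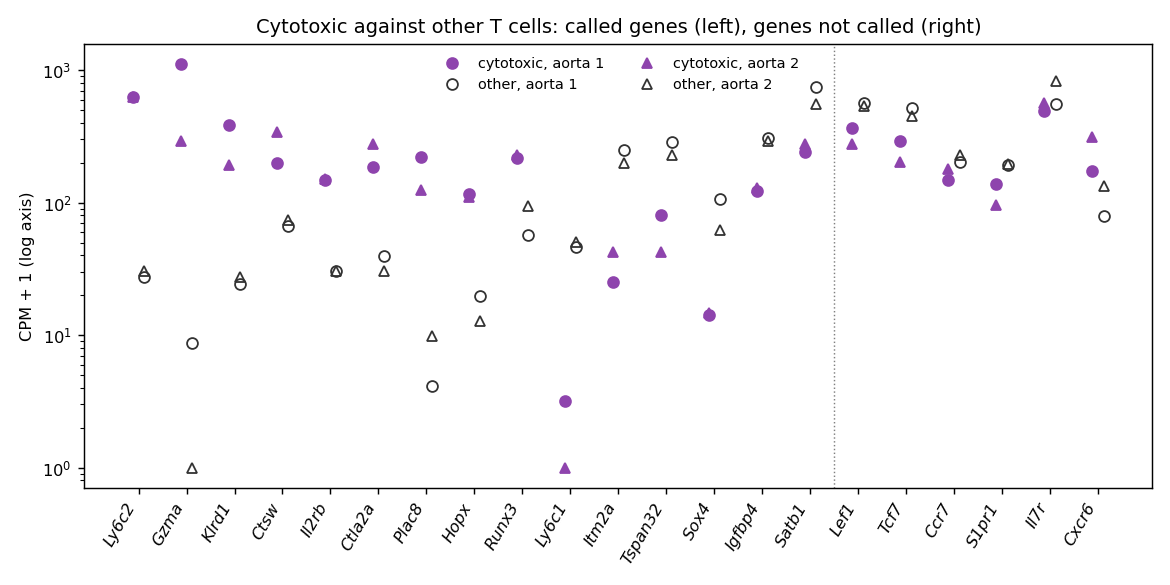
Level (CPM + 1, log axis) of 21 genes in cytotoxic T cells (filled) and in the other T cells (open) of aorta 1 (circles) and aorta 2 (triangles). The 15 genes left of the dotted line passed the test, such as *Ly6c2* at 627 and 625 against 26.5 and 29.3 CPM, and the 6 at the right, among them *Ccr7* and *Il7r*, did not.

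Most cytotoxic T cells held no *Ccl5*, one of the genes that chose them. *Ccl5* was found in 20 and 15 T cells, which held 809 and 470 UMIs. Of the 77 and 37 cytotoxic cells, 58 and 22 had no *Ccl5* UMI, 2 and 5 had between 1 and 4, and 17 and 10 had 5 or more. A UMI of *Ccr7* or *Lef1* was present in 52 of 58 and 18 of 22 of the cytotoxic cells without *Ccl5*, that is 89.7% and 81.8%. It was present in 3 of 17 (17.6%, exact 95% interval 3.80 to 43.4) and 5 of 10 (exact 95% interval 18.7 to 81.3) of those with 5 or more *Ccl5* UMIs. The cells with 5 or more *Ccl5* UMIs had medians of 5706 and 4972.5 UMIs against 5352.5 and 5609 in those without, deeper in aorta 1 and shallower in aorta 2. CD8 T cells were 50 of 58 and 18 of 22 of the cells without *Ccl5*, and 9 of 17 and 4 of 10 of those with it. The limit of 5 UMIs was chosen after the values were seen, and these counts are given without a test.

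**Figure D5:**
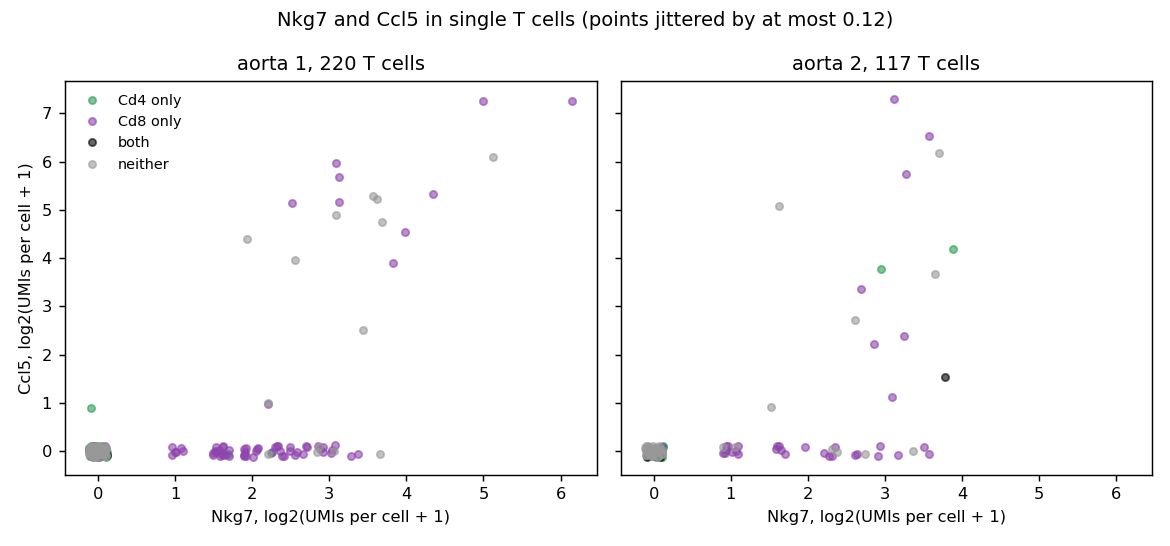
*Nkg7* (x axis) and *Ccl5* (y axis) in single T cells of each aorta, as log2(UMIs + 1) with points jittered by at most 0.12, coloured by coreceptor class. Most CD8 cells with *Nkg7* lay at 0 for *Ccl5*, and 17 and 10 cytotoxic cells held 5 or more *Ccl5* UMIs.

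Transcripts of naive T cells were found in most T cells, and those of 4 genes of helper and regulatory programs in few. At least 1 UMI of *Ccr7* or *Lef1* was present in 174 of 220 (79.1%) and 89 of 117 (76.1%) T cells. Among T cells with *Cxcr6* it was present in 15 of 40 and 13 of 29, compared with 159 of 180 and 76 of 88 of those without. *Foxp3*, the factor of regulatory T cells, was found in 3 and 1 T cells. *Ifng*, the cytokine of type 1 responses, was found in 7 and 4 cells, and *Il4* in 2 and 2. *Il17a* was found in 0 of 220 and 0 of 117 T cells, which allows shares of up to 1.36% and 2.56% of cells with a UMI. Some other genes listed for these programs were higher than in B cells, where 4.22% of all genes tested were higher and 7.3% lower. Of 9 regulatory T cell genes tested 6 were higher, among them *Tnfrsf4*, *Tnfrsf18*, *Ikzf2* and *Il2ra*, and 1 was lower. Of 16 γδ and type 17 genes 8 were higher and 2 lower, and of 3 type 2 genes 2 were higher. With B cells held to the same exclusions the numbers higher were 4, 9 and 1. The γδ and type 2 lists share genes such as *Trdc* and *Gata3* with those of receptor chains and transcription factors. These counts describe how T cells differ from B cells. The counts of cells limit cells with a captured transcript and not cells that express the gene.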

How the data were processed

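The authors deposited raw UMI counts per gene and cell for 2 aortas, made with Cell Ranger 4.0.0 from mm10 with eGFP and tdTomato added, and the labels also name Seurat 4.0. Strand use is not given in the sources used here. The tables held 8947 and 6263 cells and 32287 features. Symbols of more than 1 gene ID numbered 38. Cells entered with over 200 genes, a depth of 1000 to 25000 UMIs and under 10% mitochondrial transcripts (6744 and 4698, against 6278 and 4300 after filtering in the labels). The T cell members and the gene lists were chosen with earlier results of these data known.

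UMIs were summed per aorta and cell group, and groups of under 10 cells were left out. They were tested with edgeR 4.0.16 in R 4.3.3 (TMM, filterByExpr, quasi-likelihood) with cell group as the only term, and DESeq2 1.42.0 was an alternative. Standard errors were taken as the size of the log2 fold change over the root of its F statistic. Genes that chose a group were not tested in it. T and B cells of 1 aorta share an animal, so the aorta number pairs them, and the correlation of their deviations was -0.08. No such correlation was taken for the parts of T cells. Between CD8 and CD4 T cells the replicate block changed the numbers higher and lower from 1 and 0 to 10 and 2. Between cytotoxic and other T cells it changed them from 28 and 12 to 42 and 54. Named genes were those of the lists and the 10 largest called changes in each direction with the same direction in both aortas and at least 20 UMIs in the higher group. *Ly6c1* and the receptor variable segments were named after their values were seen. Shares have exact Clopper-Pearson 95% intervals, which cover counting error only, and floors are 3 counts. Scrublet ran in scanpy 1.11.5. With 2 aortas, p-values rest on little replication. Scripts were tested on simulated counts. Single values of a few listed genes are not reported here.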

Additional observations from a re-analysis of the deposited data

Results flagged for a closer look

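Cells outside the filter also carried the T cell transcripts. In aorta 1, 8 cells that failed the filter met the T cell rule, of which 5 had fewer than 1000 UMIs and 8 had a mitochondrial share of 10% or more. In aorta 2 the number was again 8, of which 7 had fewer than 1000 UMIs and 4 had a mitochondrial share of 10% or more. These cells entered no comparison, and they were marked because they carry a signal outside the cells analysed.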

How the results depend on the processing

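The share of T cells among filtered cells was 4.19% without the exclusion of other lineages. The share of CD4 cells was 20.9% with 1 UMI enough for a T cell, 23.99% without cells of both coreceptors, 24.3% without cells with SMC or fibroblast UMIs and 10.4% after thinning to 1000 UMIs, and that of CD8 cells was 29.2% after thinning. The share of cytotoxic cells was 30.4% with 1 UMI enough for a T cell, 42.1% and 27.7% with 1 or 3 UMIs required, and 13.0% after thinning. The alternatives with SMC or fibroblast UMIs, without cytotoxic cells, within CD8 cells and with B cells held to the exclusions of *C1qa*, *Pecam1* and *Pdgfra* were chosen after seeing the data.

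Between T and B cells, 644 genes were lower when only these groups were fitted, where 6922 genes were tested, and 508 with B cells held to the same exclusions. Between CD8 and CD4 T cells, the numbers higher and lower were 2 and 1 with DESeq2, 49 and 27 without a gene filter, 10 and 2 with the replicate block, 5 and 3 with only these groups, 9 and 3 without Scrublet doublets, and 15 and 9 without cells with SMC or fibroblast UMIs. With 3 UMIs required of a T cell, 2 were higher. Without cytotoxic cells 0 genes passed, with 86 higher and 112 lower at an unadjusted p under 0.05, and *Ly6c2* failed the gene filter there. *Ly6c2* passed in the other 9 alternatives. Between cytotoxic and other T cells, 74 and 138 genes were higher and lower without a gene filter, 50 and 88 without Scrublet doublets, and 11 and 31 within CD8 cells. The number lower was 54 with the replicate block, 19 without cells of both coreceptors and 20 without cells with SMC or fibroblast UMIs. The cause of these changes was not tested.

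Over 187 pairs of a named gene and a comparison, of 1997 recomputed values 1892 kept their direction and call, 93 lost the call and 12 reversed. Without cells with SMC or fibroblast UMIs, the T minus B log2 fold change was 0.16 for *Lum*, 0.45 for *Col1a1*, 0.50 for *Dpt* and 0.48 for *Gsn*. With B cells held to the same exclusions it was 0.93 for *Col1a1*, 1.06 for *Col1a2*, 0.34 for *Col3a1*, 1.12 for *Dpt*, 0.797 for *Gsn*, 0.71 for *C1qc* and 0.30 for *Csf1r*, and within CD8 cells *Igfbp4* was at 0.64. Leaving out aorta 1 or 2 gave 0.41 and -3.49 for *Col1a2*, -0.24 and 3.68 for *Stmn1*, and -0.0446 and 2.42 for *Hmgb2*. Another 52 such values between T and B cells and 12 between cytotoxic and other T cells kept their direction and moved by more than the spread between aortas. Leaving out an aorta leaves 1 sample a group, so it gives values and no test. Cells of both coreceptors were never in the CD8 and CD4 fit, and the cytotoxic fit has only its own groups, so these alternatives give nothing new. The replicate block changed no other count by over 1.5 times, and it ended the calls of *Klrc1* and *Klrg1* between T and B cells and no other named call. Aorta 2 gave 26 CD4 T cells, and 12 CD8 T cells that were not cytotoxic, and a difference that did not pass in such groups was not detectable at this depth and is not shown to be absent.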

Other observations

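*Ighm*, the heavy chain of immunoglobulin M, was found in 108 of 220 and 59 of 117 T cells, a share of 49.1% (exact 95% interval 42.3 to 55.9) and 50.4% (41.0 to 59.8). Its level in T cells was 189 and 194 CPM, compared with 2461 and 4547 CPM in B cells and 4.45 and 2.61 CPM in SMCs. The light chain *Igkc* held 3 and 5 UMIs in T cells where *Ighm* held 207 and 109. The ratio of *Ighm* to *Igkc* UMIs was thus 69.0 and 21.8 in T cells, 0.0653 and 0.0799 in B cells, and 0.946 and 0.467 in SMCs. Macrophages had ratios of 39.8 and 31.9, with *Ighm* at 263 and 301 CPM, whereas endothelial cells had ratios of 0.381 and 0.474. After thinning to 1000 UMIs, *Ighm* remained in 16.4% and 14.53% of T cells and in 0.297% and 0.0707% of SMCs. The shares were 27 of 52 and 12 of 26 in CD4 T cells and 42 of 82 and 21 of 37 in CD8 T cells.

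Of 14 immediate early genes 2 were lower in T cells than in B cells, where 7.3% of all genes were lower. *Jun* was at 51.1 and 37.5 CPM in T cells and at 129 and 111 CPM in B cells, and *Zfp36* was the other. With B cells held to the exclusions of the T cell rule *Jun* no longer passed, and *Zfp36* and *Jund* did.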
